A study of Mus musculus with 9 samples.

Results

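The brain transcripts described here come from 5 mouse genes, Cap1, Cap2, Baiap2l1, Tmem87a and Hddc3, which the array read with 9 probe sets among 45037 tested. Cap1, Baiap2l1, Tmem87a and Hddc3 were chosen because a probe set of each was much brighter in BALB/cJ than in C57BL/6ByJ brain, with the B6By.C.132.54 values also known, and Cap2 was added as the paralogue of Cap1. The values that chose them are therefore given as a description with no p-value. The choice had no fixed threshold. Genes were ranked by their brightest probe set, dim signals included. The measured differences of Cap1, Baiap2l1, Tmem87a and Hddc3 then took places 1, 2, 3 and 7 among 18193 genes. Erdr1, Gnb1 and Kcnj9 filled the places between, at 2.12, 2.00 and 1.70 on the log2 scale. Ranked by single probe sets, the order differed. Another probe set of Gnb1 took place 1 at 4.97, ahead of both Cap1 probe sets (places 2 and 3). A probe set of Pdxdc1 took place 4 at 3.17, ahead of Baiap2l1 (place 5) and Tmem87a (place 6). Hddc3 took place 27 in that ranking.

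The study compared experimentally naive male mice, 11 ± 1 weeks old, of 3 inbred strains with no transgene and no treatment. They were BALB/cJ, B6By.C.132.54, a line that by its name carries BALB/c DNA on the C57BL/6By background, and C57BL/6ByJ. Brains without cerebellum were split into hemispheres, and RNA from 10 hemispheres of a strain was pooled for each Affymetrix Mouse430_2 array, a chip on which a set of short probes reads each transcript. There were 3 arrays per strain, with 30 mice per strain and 90 in all, handled in 3 batches. A pool averages over mice, so the spread between arrays is one between pools, and in whole hemispheres fewer cells of a type cannot be told apart from less RNA per cell.

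Cap1 and Cap2 encode the cyclase-associated proteins, which bind actin, help cofilin to take filaments apart and recharge the released monomers with ATP. The name comes from the yeast relative, which also binds adenylyl cyclase. Baiap2l1 encodes an I-BAR protein, a curved adaptor that binds the plasma membrane and couples it to actin assembly. Tmem87a encodes a multipass membrane protein of the Golgi apparatus, linked in cultured human cells to the return of cargo from endosomes. Hddc3 encodes a small HD-domain hydrolase related to the bacterial enzyme that degrades the alarmone ppGpp, and the human protein is known to act on NADPH.

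The stretches of 250 bases before the transcription start are shown for Cap1 and Cap2, as the gained gene and its paralogue, and for Baiap2l1 and Tmem87a, which were gained together with Cap1 in the same arrays. They come from RefSeq (GRCm38.p6) and are written 5′ to 3′ on the gene's strand, and all 5 genes had an entry. The windows are chr4:122886077-122886326 (minus strand), chr13:46501653-46501902 (plus strand), chr5:144358113-144358362 (minus strand) and chr2:120404117-120404366 (minus strand). Capitals mark every match, on either strand, to the GC box GGGCGG, the CCAAT box CCAAT, the TATA box TATAAA and the ETS core CCGGAAG.
Cap1: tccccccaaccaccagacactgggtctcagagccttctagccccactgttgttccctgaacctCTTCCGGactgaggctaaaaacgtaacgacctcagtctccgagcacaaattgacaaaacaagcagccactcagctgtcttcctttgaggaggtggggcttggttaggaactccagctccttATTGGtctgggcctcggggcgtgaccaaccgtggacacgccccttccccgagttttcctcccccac
Cap2: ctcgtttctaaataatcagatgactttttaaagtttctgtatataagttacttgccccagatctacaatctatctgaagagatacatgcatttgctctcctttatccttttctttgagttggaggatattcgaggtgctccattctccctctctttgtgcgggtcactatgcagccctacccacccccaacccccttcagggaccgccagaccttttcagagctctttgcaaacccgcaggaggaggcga
Baiap2l1: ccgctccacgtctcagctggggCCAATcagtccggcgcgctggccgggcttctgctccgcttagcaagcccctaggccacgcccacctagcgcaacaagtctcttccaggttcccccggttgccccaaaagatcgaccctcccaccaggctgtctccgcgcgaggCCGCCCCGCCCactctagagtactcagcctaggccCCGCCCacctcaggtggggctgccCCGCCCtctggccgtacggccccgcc
Tmem87a: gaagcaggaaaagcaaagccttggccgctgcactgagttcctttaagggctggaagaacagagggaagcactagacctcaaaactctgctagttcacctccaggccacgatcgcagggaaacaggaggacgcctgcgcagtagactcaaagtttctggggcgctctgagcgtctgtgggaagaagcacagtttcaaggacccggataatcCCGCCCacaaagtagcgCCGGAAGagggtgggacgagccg
The Cap1 window held 1 CCAAT box and 1 ETS core, and the Cap2 window held none of the 4 motifs. The Baiap2l1 window held 4 GC boxes, of which the first and second share 1 base, and 1 CCAAT box. The Tmem87a window held 1 GC box and 1 ETS core, and the Hddc3 window, not printed, held no match. Among 32851 RefSeq windows of the same length, 32.7% held a GC box, 33.8% a CCAAT box, 12.4% a TATA box and 6.91% an ETS core. The G and C content was 57.2% for Cap1, 46.4% for Cap2, 70.4% for Baiap2l1, 56.8% for Tmem87a and 52.8% for Hddc3, against a median of 52.4% over all windows. No motif was present in every one of the 4 gained genes. These letters are those of the RefSeq assembly, which is of a C57BL/6J mouse, and a match describes the letters only.

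Across the arrays the median intensity lay between 15.49 and 15.99 and the mean correlation of an array with its own strain between 0.988 and 0.995, lowest for B6By.C.132.54 replicate 3. The 6 neuron markers, such as the synaptic gene Snap25, had strain means between 6.59 and 11.1 log2 intensity. Their summed linear intensity ran from 6008 to 7021 in BALB/cJ, from 5562 to 6639 in B6By.C.132.54 and from 6470 to 7346 in C57BL/6ByJ, so the strains overlapped. The summed astrocyte markers also overlapped, at 1139 to 1382 in BALB/cJ, 1053 to 1322 in B6By.C.132.54 and 1087 to 1258 in C57BL/6ByJ. Of 33 measured markers of neural, vascular, cerebellar, choroid plexus, blood and pituitary cells, 3 differed between BALB/cJ and C57BL/6ByJ (limma, Benjamini-Hochberg adjusted p under 0.05, here termed called), which is 9.09% beside 1.32% of all genes. The astrocyte filament gene Gfap rose by 0.92 on the log2 scale, and the neuronal glutamate transporter gene Slc17a7 (-1.45) and the endothelial junction gene Cldn5 (-0.54) fell. Cldn5 (limma adjusted p = 0.0466) did not pass when any 1 of the 6 arrays compared was left out (adjusted p from 0.0596 to 0.213), nor without B6By.C.132.54 replicate 2 or 3 (0.0511 and 0.0583). The cerebellum had been removed. Of its 4 markers, Gabra6 (3.44 in BALB/cJ, 3.30 in B6By.C.132.54 and 2.99 in C57BL/6ByJ) and Pcp2 (3.71, 3.75 and 3.78 in the same order) read under 3.97, the median over probe sets. Cbln1 (6.66, 6.53 and 6.58) and Calb1 (8.76, 8.79 and 8.90) read well above it, and none of the 4 was called. The part of these markers in the strain differences was not tested.

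Cap1 showed the largest gain of the 5 genes, and it did so on both of its probe sets. Probe set 1417461_at read 8.17, 8.74 and 8.56 log2 intensity on the BALB/cJ arrays, 4.19, 4.60 and 4.56 on the B6By.C.132.54 arrays, and 4.37, 4.24 and 4.53 on the C57BL/6ByJ arrays. On the linear scale these were 287 to 429 in BALB/cJ, 18.2 to 24.2 in B6By.C.132.54 and 19.0 to 23.0 in C57BL/6ByJ. All 3 BALB/cJ arrays stood above the other 6, with 3.57 on the log2 scale between the lowest of the 3 and the highest of the 6. BALB/cJ averaged 8.49 ± 0.295 against 4.38 ± 0.141 in C57BL/6ByJ (SD, n = 3 each), which is a difference of 4.11 ± 0.157 (SE), or 17.3-fold.

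The second Cap1 probe set, 1417462_at, read 7.76, 7.37 and 7.53 in BALB/cJ, 2.96, 3.29 and 3.06 in B6By.C.132.54, and 3.29, 2.91 and 2.93 in C57BL/6ByJ. Again no array of the other strains came near those of BALB/cJ, and the gap was 4.08. The measured difference between BALB/cJ and C57BL/6ByJ was 4.51 ± 0.139 (SE), and depends on the dim signal of C57BL/6ByJ. B6By.C.132.54 (3.11) and C57BL/6ByJ (3.04) both read under 3.97, the median over probe sets. Signal that dim differs little from background, and no fold is printed for it. The share of all probe sets that read lower was 91.0% in BALB/cJ, against 28.0% in C57BL/6ByJ.

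Within BALB/cJ the probe sets ordered the pools in opposite ways. Replicate 1 was the lowest pool on 1417461_at and the highest on 1417462_at, and replicate 2 the reverse. The 2 probe sets share the same source transcript in the array's annotation.

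Cap2 did not follow its paralogue. Probe set 1450910_at read 8.52, 8.71 and 8.79 in BALB/cJ, 8.64, 8.76 and 8.71 in B6By.C.132.54, and 8.72, 8.77 and 8.76 in C57BL/6ByJ. Probe set 1423222_at read 7.73, 8.04 and 7.96 in BALB/cJ, 7.87, 8.21 and 8.02 in B6By.C.132.54, and 7.98, 8.001 and 8.08 in C57BL/6ByJ. The arrays of all 3 strains overlapped on both. The difference between BALB/cJ and C57BL/6ByJ was -0.08 ± 0.0904 (SE) on 1450910_at, with a 95% interval of -0.28 to 0.12, and -0.11 ± 0.111 on 1423222_at, with an interval of -0.35 to 0.14. The change of Cap1 exceeded that of Cap2 by 4.59 ± 0.23 and 4.62 ± 0.254 on the log2 scale (1417462_at against each Cap2 probe set, as measured). Since Cap1 was chosen for its change, this contrast is a description. Levels of Cap1 and Cap2 themselves cannot be set against each other, because probe sets differ in brightness.

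**Figure D1:**
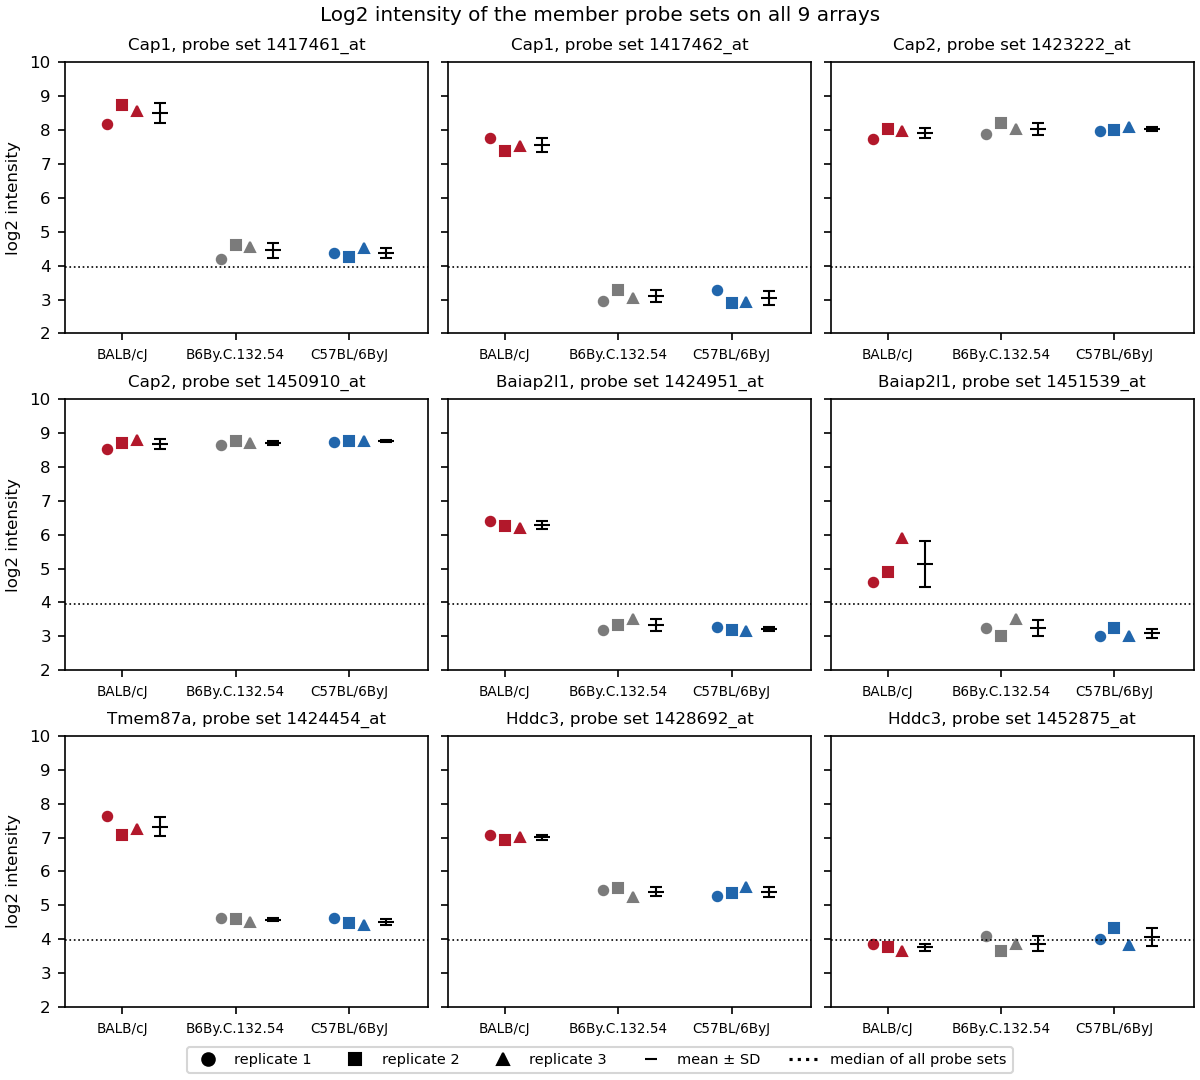
Log2 intensity (vertical axis) of the 9 probe sets of the 5 genes on all 9 arrays, with strains along the horizontal axis, a symbol per replicate, and the mean ± SD of 3 arrays beside them. The 3 BALB/cJ arrays stand above the other 6 in both Cap1 panels, both Baiap2l1 panels, Tmem87a and Hddc3 1428692_at, and overlap with them in both Cap2 panels and Hddc3 1452875_at. The dotted line is the median of all probe sets, 3.97.

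Baiap2l1 was gained on both of its probe sets. Probe set 1424951_at read 6.42, 6.26 and 6.18 in BALB/cJ, 3.18, 3.32 and 3.52 in B6By.C.132.54, and 3.28, 3.19 and 3.17 in C57BL/6ByJ. The BALB/cJ pools agreed closely here (SD 0.119), and their lowest stood 2.66 above the highest of the other 6 arrays. The difference between BALB/cJ and C57BL/6ByJ was 3.07 ± 0.105 (SE). Probe set 1451539_at read 4.60, 4.89 and 5.90 in BALB/cJ, 3.23, 3.01 and 3.50 in B6By.C.132.54, and 3.02, 3.24 and 3.02 in C57BL/6ByJ. BALB/cJ replicate 3 stood well above the other BALB/cJ pools, giving an SD of 0.681, the widest of any member probe set and strain. Even so, the BALB/cJ arrays remained 1.10 above the rest, and the difference was 2.04 ± 0.268. Both other strains averaged 3.09 to 3.34 on these probe sets, under the median over probe sets, and no fold is printed. The sizes of the 2 gains rest on that dim signal and are not set against each other.

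Tmem87a was read by a single probe set, 1424454_at. It gave 7.63, 7.08 and 7.25 in BALB/cJ, 4.61, 4.59 and 4.52 in B6By.C.132.54, and 4.62, 4.49 and 4.43 in C57BL/6ByJ. The 6 arrays of the other strains fell within a narrow band, and the lowest BALB/cJ array was 2.46 above it. BALB/cJ averaged 7.32 ± 0.282 against 4.51 ± 0.0937 in C57BL/6ByJ (SD, n = 3 each), a difference of 2.81 ± 0.128 (SE), or 7.00-fold. With no other probe set, the gain of Tmem87a has no check from a separate part of the transcript.

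Hddc3 was gained on one of its probe sets and not on the other. Probe set 1428692_at read 7.07, 6.94 and 7.00 in BALB/cJ, 5.46, 5.50 and 5.24 in B6By.C.132.54, and 5.26, 5.36 and 5.54 in C57BL/6ByJ. The BALB/cJ pools were the tightest of the gained set (SD 0.0688) and lay 1.39 above the highest other array. BALB/cJ averaged 3.06 times the C57BL/6ByJ intensity, a difference of 1.61 ± 0.103 (SE) on the log2 scale. Probe set 1452875_at read 3.87, 3.77 and 3.64 in BALB/cJ, 4.10, 3.64 and 3.87 in B6By.C.132.54, and 4.01, 4.34 and 3.82 in C57BL/6ByJ. All strains overlapped there, close to the median of all probe sets, and BALB/cJ minus C57BL/6ByJ was -0.30 ± 0.148. BALB/cJ (3.76) and B6By.C.132.54 (3.87) averaged under that median of 3.97, and C57BL/6ByJ (4.05) little above it. Signal that dim differs little from background, so 1452875_at is a weak check on the gain. As measured, the changes on the 2 Hddc3 probe sets differed by 1.91 ± 0.215 (SE). Both are annotated to the same source sequence.

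In all, 6 of the 9 member probe sets were called higher in BALB/cJ than in C57BL/6ByJ, where 1.43% of all probe sets were called and 0.508% were called higher. The same 6 were called higher in BALB/cJ than in B6By.C.132.54, where 1.28% were called and 0.564% called higher. Both comparisons share the BALB/cJ arrays, and the values of both were known when the genes were chosen, so nothing is read from the counts. In these 6 probe sets the 3 BALB/cJ arrays all lay above the other 6, as they did in 2.71% of all probe sets. The gap was at least 1 on the log2 scale in each of the 6, and in 0.0844% of all probe sets (38 of 45037). BALB/cJ lay below the other 6 by as much in 0.16% (72).

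**Figure D2:**
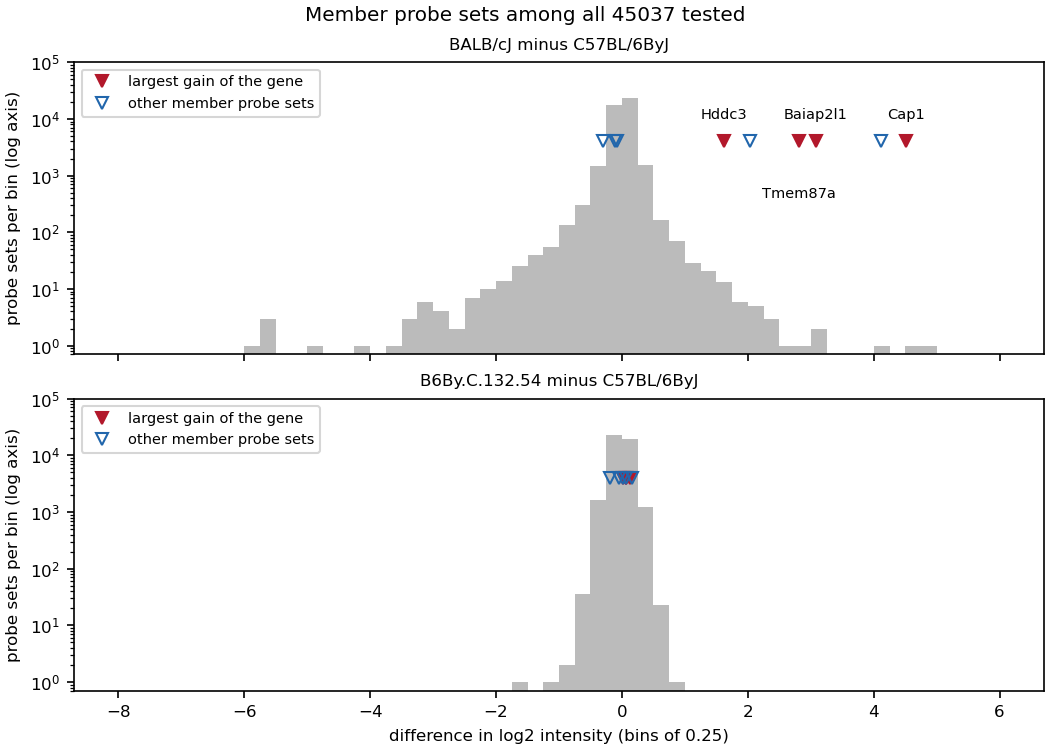
Number of probe sets (vertical log axis) per bin of 0.25 in log2 difference (horizontal axis), for BALB/cJ minus C57BL/6ByJ above and B6By.C.132.54 minus C57BL/6ByJ below, over all 45037 probe sets. Filled triangles mark the probe set with the largest gain of Cap1 (4.51), Baiap2l1 (3.07), Tmem87a (2.81) and Hddc3 (1.61), and open triangles the other member probe sets. In the lower panel all 9 lie between -0.18 and 0.16.

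The comparison of B6By.C.132.54 with C57BL/6ByJ shows where the line stands on each gained probe set. Which BALB/c segments the line carries was not examined here, so whether any covers a member gene is not known. A small difference therefore does not tell whether a gain travels with BALB/c DNA at its own locus. The comparison shares its arrays with those whose values were known when the genes were chosen, so for these genes it is a description too. Cap1 differed by 0.06 ± 0.139 (SE, log2 scale) on 1417462_at and by 0.07 ± 0.157 on 1417461_at. Baiap2l1 differed by 0.13 ± 0.105 on 1424951_at and by 0.16 ± 0.268 on 1451539_at, Tmem87a by 0.06 ± 0.128 and Hddc3 by 0.011 ± 0.103 on 1428692_at. Each of these differences is smaller than its SE or little larger.

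For Cap2 the differences between B6By.C.132.54 and C57BL/6ByJ were -0.05 ± 0.0904 on 1450910_at and 0.013 ± 0.111 on 1423222_at, and for Hddc3 1452875_at -0.18 ± 0.148. By limma 0 of the 9 member probe sets were called and 0 had an unadjusted p under 0.05, where 0% of all probe sets were called and 1751 of 45037 had an unadjusted p under 0.05. Nothing is read from these counts. Expressed as a share of the parental difference, B6By.C.132.54 lay 1.34% of the way from C57BL/6ByJ to BALB/cJ on Cap1 1417462_at and 1.67% on 1417461_at. The share was 4.22% on Baiap2l1 1424951_at, 7.75% on Baiap2l1 1451539_at, 2.15% on Tmem87a and 0.691% on Hddc3 1428692_at. Each share rests on a difference smaller than its SE or little larger, so the shares do not show an intermediate level. For every gained probe set the order of mean levels was BALB/cJ, B6By.C.132.54, C57BL/6ByJ, and the arrays of B6By.C.132.54 and C57BL/6ByJ overlapped.

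BALB/cJ stood nearly as far above B6By.C.132.54 as above C57BL/6ByJ. The differences between BALB/cJ and B6By.C.132.54 were 4.45 ± 0.139 and 4.04 ± 0.157 for Cap1 (1417462_at and 1417461_at), 2.95 ± 0.105 and 1.88 ± 0.268 for Baiap2l1 (1424951_at and 1451539_at), 2.75 ± 0.128 for Tmem87a and 1.60 ± 0.103 for Hddc3 1428692_at (SE). For Cap2 they were -0.03 ± 0.0904 and -0.12 ± 0.111 (1450910_at and 1423222_at). These values share the BALB/cJ arrays with those against C57BL/6ByJ and are not a second observation of the gain.

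**Figure D3:**
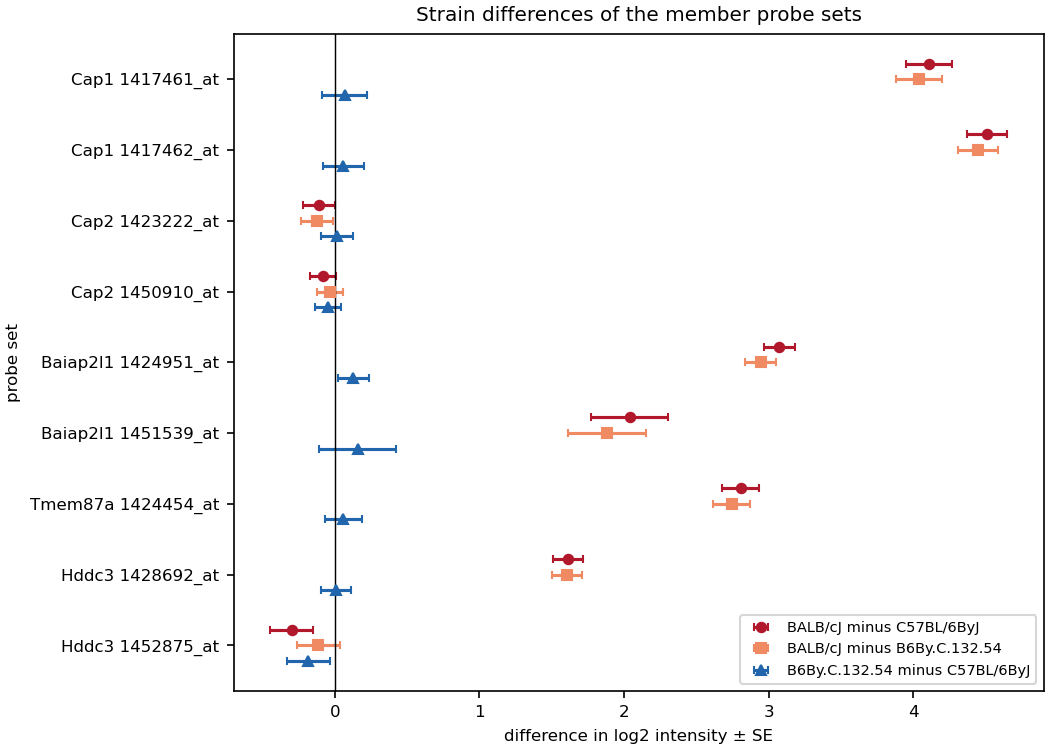
Difference in log2 intensity ± SE (horizontal axis) of each of the 9 member probe sets (vertical axis) for the 3 strain pairs. Both BALB/cJ differences of a gained probe set lie together, from 1.60 for Hddc3 to 4.51 for Cap1, and the B6By.C.132.54 minus C57BL/6ByJ differences lie between -0.18 and 0.16.

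The genes next to the gained ones were read to see how far each difference extends along the chromosome. The 5 measured genes on either side of each member, in the RefSeq gene order, gave 50 genes. Of these, 2 were called higher in BALB/cJ than in C57BL/6ByJ and 0 lower, against 1.32% of all genes called and 0.451% called higher. The called neighbours were Pla2g4e, a cytosolic phospholipase A2 gene, and Rccd1, a gene for a protein with regulator of chromosome condensation repeats. Pla2g4e lies 4 measured genes before Tmem87a on chromosome 2 and measured 5.47 ± 0.0337 in BALB/cJ, 4.46 ± 0.222 in B6By.C.132.54 and 4.59 ± 0.154 in C57BL/6ByJ (SD, n = 3 each). Its difference between BALB/cJ and C57BL/6ByJ was 0.88 ± 0.12 (SE, limma adjusted p = 0.0026). The direction is that of Tmem87a, while the 3 genes between them, Pla2g4d, Pla2g4f and Vps39, were not called. Of these, Pla2g4d and Pla2g4f read under the median over probe sets in every strain, where a difference could be missed.

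Rccd1 lies 2 measured genes before Hddc3 on chromosome 7, and measured 4.13 ± 0.169 in BALB/cJ, 3.62 ± 0.078 in B6By.C.132.54 and 3.46 ± 0.17 in C57BL/6ByJ. Its difference between BALB/cJ and C57BL/6ByJ was 0.67 ± 0.114 (SE, limma adjusted p = 0.0126), and C57BL/6ByJ again read under the median over probe sets. Rccd1 no longer passed when BALB/cJ replicate 1 or 3 (adjusted p = 0.0581 and 0.0685) or C57BL/6ByJ replicate 1 (0.0581) was left out. Neither Pla2g4e nor Rccd1 had another probe set.

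None of the genes directly beside a member was called. Around Cap1 on chromosome 4 these were Ppt1, a lysosomal thioesterase gene (0.06 on the log2 scale), and Mfsd2a, a lipid transporter gene of brain endothelium (0.23), and the 10 neighbours ranged from -0.15 to 0.23. Beside Baiap2l1 on chromosome 5, Bri3 measured 0.24 and Gm15708 0.04. Beside Tmem87a, Vps39 measured 0.03 and Ganc 0.06, and beside Hddc3, Unc45a measured 0.11 and Man2a2 0.25. Gm15708 and Ganc read under the median over probe sets in every strain, where a difference could be missed. So did Tmco2, Gm12888, 9530002B09Rik and Bmp8b among the neighbours of Cap1, and the low end of the range given there is that of 9530002B09Rik. Beside Cap2 on chromosome 13, Rbm24 measured 0.0027 and Fam8a1 0.05. Adjusted p-values of these 10 adjacent genes were 0.675 or higher between BALB/cJ and C57BL/6ByJ (limma). Against B6By.C.132.54, where 1.1% of all genes were called, 0.517% higher and 0.588% lower, Pla2g4e was again higher in BALB/cJ (1.01 ± 0.12, limma adjusted p = 0.00104). Nptx2, a neuronal pentraxin gene 2 places after Baiap2l1, was lower there (-0.56 ± 0.115, limma adjusted p = 0.0411), opposite to Baiap2l1, and its other probe set was lower too (-0.62 ± 0.102, limma adjusted p = 0.0108). The brighter of the Nptx2 probe sets did not pass when BALB/cJ replicate 2 or 3 (adjusted p = 0.203 and 0.189), B6By.C.132.54 replicate 1, 2 or 3 (0.0698, 0.129 and 0.13) or C57BL/6ByJ replicate 2 or 3 (0.0626 and 0.0655) was left out, nor in a fit of the 6 arrays compared (0.0652). Man2a2 beside Hddc3 passed there only when B6By.C.132.54 replicate 2 was left out. Between B6By.C.132.54 and C57BL/6ByJ 0 of the 50 neighbours were called, as for 0% of all genes, and 0 had an unadjusted p under 0.05 (limma). That threshold was passed by 3 of the 50 for BALB/cJ against C57BL/6ByJ and by 8 for BALB/cJ against B6By.C.132.54. Over all 45037 probe sets 3416 and 3378 passed it in these 2 comparisons, in the same order.

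**Figure D4:**
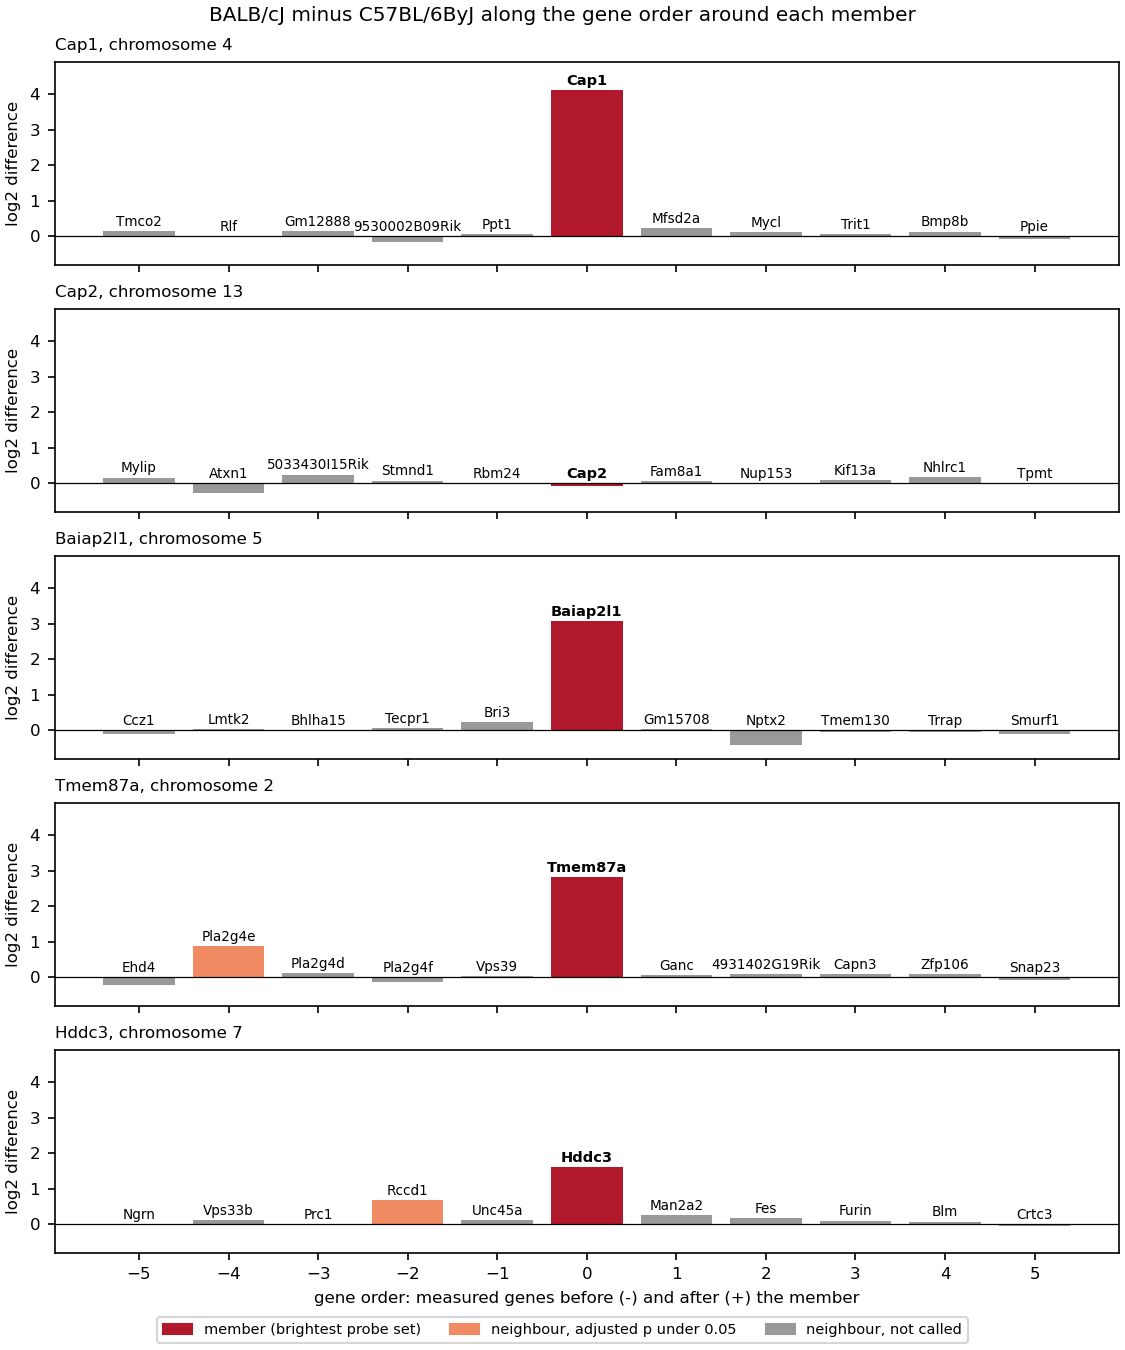
BALB/cJ minus C57BL/6ByJ in log2 intensity (vertical axis) for each member, by its brightest probe set, and the 5 measured genes on either side in gene order (horizontal axis). The bars of Cap1 (4.11), Baiap2l1 (3.07), Tmem87a (2.81) and Hddc3 (1.61) exceed those of the neighbours, between -0.42 and 0.88, of which Pla2g4e and Rccd1 were called. Some neighbours read under the median over probe sets in every strain, where a difference could be missed.

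The pathways around the members were followed in 5 gene lists with 104 measured genes of 112 listed, none of them a member. Between BALB/cJ and C57BL/6ByJ, 2 rose and 3 fell, or 4.81% of the listed genes against 1.32% of all genes called. The lists were chosen with earlier results of these data known, so these counts are a description and nothing is read from them. Of 35 measured actin dynamics genes, which include the partners of Cap1, Pfn1 rose and none fell, with a list median of -0.03 beside 0.02 over all genes. Pfn1 encodes profilin, which binds actin monomers as cyclase-associated proteins do, and it averaged 8.19 ± 0.161 in BALB/cJ, 7.65 ± 0.0648 in B6By.C.132.54 and 7.57 ± 0.0868 in C57BL/6ByJ (SD, n = 3 each). The difference between BALB/cJ and C57BL/6ByJ was 0.62 ± 0.0991 (SE), or 1.54-fold (limma adjusted p = 0.00848), but did not pass when C57BL/6ByJ replicate 1 was left out (adjusted p = 0.0502). The actin gene Actb (-0.02), the cofilin gene Cfl1 (-0.013) and its muscle-type relative Cfl2 (-0.11) were not called.

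Pfn1 was higher than in B6By.C.132.54 as well (0.55 ± 0.0991, limma adjusted p = 0.0203). That difference did not pass when BALB/cJ replicate 2 or 3 (adjusted p = 0.0696 and 0.0782) or B6By.C.132.54 replicate 1 or 2 (0.0706 and 0.0785) was left out, nor in a fit of the 6 arrays compared (0.0754). With the replicate number as a block, Gsn, which encodes the filament-severing protein gelsolin, was called there too (0.42, limma adjusted p = 0.0421 against 0.132 in the model that has no block), which makes the count 2 of 35. Between B6By.C.132.54 and C57BL/6ByJ no actin dynamics gene was called and 1 had an unadjusted p under 0.05.

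Among 21 measured I-BAR proteins and their WAVE, WASP and Ena/VASP partners, Cyfip2 fell and none rose. Cyfip2 encodes a subunit of the WAVE complex, which starts branched actin filaments under the membrane. It measured 8.55 ± 0.0362 in BALB/cJ, 9.27 ± 0.0897 in B6By.C.132.54 and 9.44 ± 0.118 in C57BL/6ByJ, a difference of -0.88 ± 0.0897 (SE) between BALB/cJ and C57BL/6ByJ (limma adjusted p = 0.00033). BALB/cJ was also lower than B6By.C.132.54 (-0.71 ± 0.0897, limma adjusted p = 0.00172). Neither of its other probe sets was called (-0.54 and 0.06 between BALB/cJ and C57BL/6ByJ). The direction is opposite to that of Baiap2l1. Its nearest measured relative, Baiap2, averaged 8.49 ± 0.254 in BALB/cJ, against 8.22 ± 0.368 in C57BL/6ByJ, and was not called (0.27 ± 0.193, limma adjusted p = 0.886), nor were the I-BAR genes Mtss1 (0.02) and Mtss2 (-0.10).

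The 16 adenylyl cyclase and protein kinase A genes held no called member in any comparison (limma), with differences between BALB/cJ and C57BL/6ByJ from -0.18 to 0.25 and 0 of 16 at an unadjusted p under 0.05. For BALB/cJ against B6By.C.132.54 and for B6By.C.132.54 against C57BL/6ByJ 1 each had an unadjusted p under 0.05. Adcy1, a calcium-stimulated cyclase of neurons, measured 9.91 ± 0.0691 in BALB/cJ and 9.90 ± 0.144 in C57BL/6ByJ.

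Of 20 measured relatives of Tmem87a and genes of endosome-to-Golgi retrieval, Vps52 and Snx6 fell in BALB/cJ against C57BL/6ByJ and none rose, beside 0.874% of all genes called lower. Vps52, a subunit of the GARP complex that tethers returning vesicles at the Golgi (chromosome 17), measured 4.51 ± 0.324 in BALB/cJ, 5.86 ± 0.29 in B6By.C.132.54 and 5.97 ± 0.253 in C57BL/6ByJ. This is a difference of -1.46 ± 0.191 (SE) between BALB/cJ and C57BL/6ByJ (limma adjusted p = 0.00202), and its other probe set was lower too (-2.09 ± 0.227, limma adjusted p = 0.000565). Snx6, a sorting nexin that works with retromer (chromosome 12), measured 5.90 ± 0.158 in BALB/cJ and 6.44 ± 0.0773 in C57BL/6ByJ (-0.54 ± 0.0986, limma adjusted p = 0.0192), and none of its 3 other probe sets was called. Snx6 no longer passed when BALB/cJ replicate 1 or 2 (adjusted p = 0.091 and 0.108) or C57BL/6ByJ replicate 1, 2 or 3 (0.0998, 0.0615 and 0.0725) was left out. Against B6By.C.132.54 only Vps52 was lower in BALB/cJ (-1.35 ± 0.191, limma adjusted p = 0.00371). The closest relative, Tmem87b, stood at 5.83 ± 0.163 in BALB/cJ, against 6.07 ± 0.0477 in C57BL/6ByJ, and was not called (-0.24 ± 0.101, limma adjusted p = 0.593). Gpr107 (0.0021) and Gpr108 (0.05), of the same GOLD-domain family, were not called either.

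Of 12 measured HD-domain and NADPH supply genes, Me3 rose and none fell. Me3 encodes the mitochondrial NADP-dependent malic enzyme, which makes NADPH, and lies like Hddc3 on chromosome 7. It measured 7.07 ± 0.138 in BALB/cJ, 6.06 ± 0.237 in B6By.C.132.54 and 6.12 ± 0.228 in C57BL/6ByJ. BALB/cJ was 1.93-fold higher than C57BL/6ByJ (0.95 ± 0.144, SE, limma adjusted p = 0.00579), and higher than B6By.C.132.54 by 1.01 ± 0.144 (limma adjusted p = 0.00399), on a single probe set. Hddc2, another HD-domain gene, measured 5.42 ± 0.179 in BALB/cJ and 5.57 ± 0.0271 in C57BL/6ByJ (-0.14 ± 0.0966, limma adjusted p = 0.86). The NAD kinase genes Nadk (-0.03) and Nadk2 (-0.08) and the transhydrogenase gene Nnt (-0.011) were not called. Between B6By.C.132.54 and C57BL/6ByJ none of the 104 listed genes was called (limma), as for 0% of all genes. There, 3 of the 104 had an unadjusted p under 0.05. For BALB/cJ against C57BL/6ByJ 10 of the 104 did, and for BALB/cJ against B6By.C.132.54 14. Over all 45037 probe sets 1751, 3416 and 3378 passed that threshold, in the same order of comparisons. Nothing is read from these counts.

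**Figure D5:**
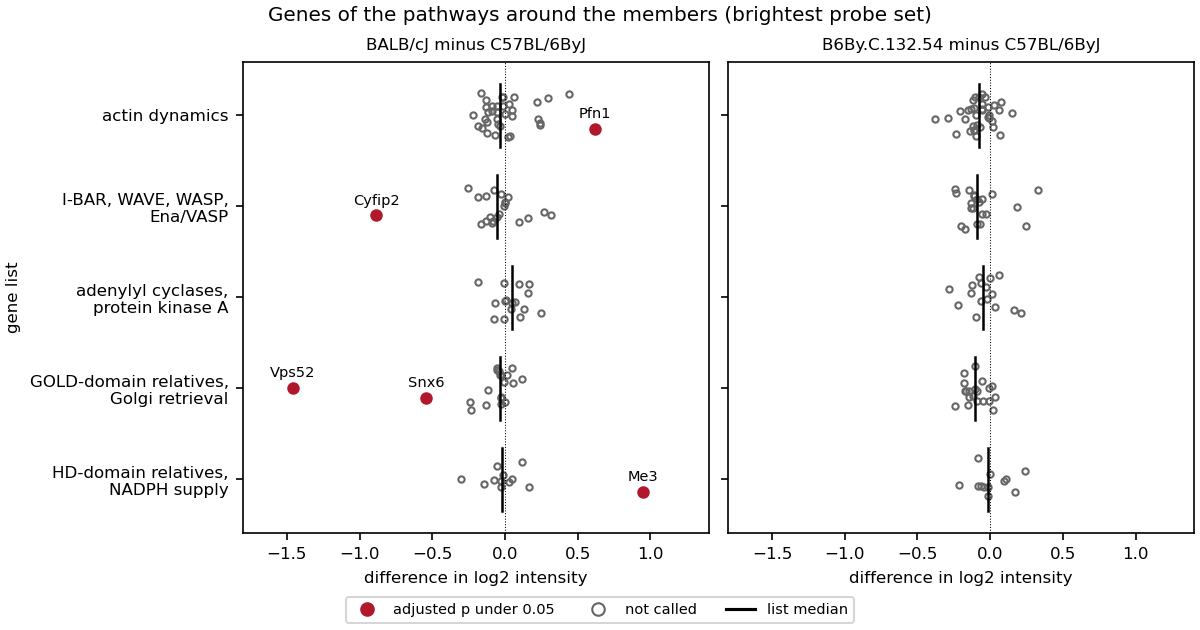
Difference in log2 intensity (horizontal axis) of each measured gene of the 5 lists (vertical axis), for BALB/cJ minus C57BL/6ByJ on the left and B6By.C.132.54 minus C57BL/6ByJ on the right, with a bar at the list's median. Filled points passed an adjusted p under 0.05. They are Pfn1 and Me3 above 0 and Cyfip2, Vps52 and Snx6 below 0 on the left, and none on the right.

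The gained genes were chosen for a rise in BALB/cJ, so their likeness to each other follows largely from that choice. Likeness was measured as Pearson's r over the 9 arrays among 83 candidate genes. Their strain means differed by at least 1 on the log2 scale, and the highest was at or above the median over probe sets. Baiap2l1 met the second condition only through BALB/cJ (6.29, against 3.34 in B6By.C.132.54 and 3.21 in C57BL/6ByJ). The arrays fall into 3 BALB/cJ and 6 others, which fixes most of each r, so it is given without a test. Every candidate gene was read by its brightest probe set, which for Cap1 is 1417461_at. For Cap1 1417462_at the 3 most alike genes were Tmem87a (r = 0.997), Baiap2l1 (0.997) and Hddc3 (0.989). For Baiap2l1 they were Tmem87a (0.994), Cap1 by 1417461_at (0.992) and Hddc3 (0.984). For Tmem87a they were Baiap2l1, Hddc3 (0.988) and Tmem181a (0.986), another multipass membrane protein gene, on chromosome 17. For Hddc3 they were Tmem87a, Supt16 (0.987), a subunit gene of the FACT histone chaperone on chromosome 14, and Raph1 (0.985), which encodes lamellipodin, a partner of Ena/VASP proteins in actin assembly, on chromosome 1. Read by 1417461_at, Cap1 is not among the 3 for Tmem87a or Hddc3, but 1417462_at had an r of 0.997 with Tmem87a and 0.989 with Hddc3, above every gene listed for them. Raph1 measured 8.05 ± 0.179 in BALB/cJ, 6.70 ± 0.0392 in B6By.C.132.54 and 6.87 ± 0.0883 in C57BL/6ByJ (SD, n = 3 each). Tmem181a measured 7.15 ± 0.195, 6.05 ± 0.0585 and 5.91 ± 0.0931, and Supt16 8.48 ± 0.123, 7.11 ± 0.0999 and 7.18 ± 0.0981, in the same order of strains. These 3 genes were chosen by their likeness, so their strain differences are a description too.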

How the data were processed

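Each array gives every probe set a linear signal intensity, as deposited by the authors. GCOS and RMA are named, per the submitters' processing notes, and the background and normalization steps are not given in the sources used here. Probe sequences were not analysed here. Intensities were taken to log2 without a pseudocount, 64 control probe sets were dropped, and the other 45037 were fitted with limma 3.58.1 in R 4.3.3 (lmFit and eBayes, 1 mean per strain, 9 arrays, two-sided, Benjamini-Hochberg over all probe sets, threshold 0.05). The number of arrays limits the precision. Of the probe sets, 34945 had 1 gene, 932 several and 9160 none in the platform annotation. Symbols and gene order came from RefSeq, which held 34741 of the named ones, and a gene was represented by its brightest probe set.

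The members and lists were chosen with earlier results of these data known. B6By.C.132.54 against C57BL/6ByJ was planned as a test of the members and is given for them as a description, because its arrays also entered that choice. Named were all member probe sets, called or first-listed list genes and relatives of members, called or adjacent neighbours, and the 3 most alike genes per gained probe set. The labels call the replicates biological and do not say that their numbers are batches. Same-numbered arrays of different strains deviated together from their strain means (9 pairs, r from 0.148 to 0.67, over probe sets at or above the median), against -0.58 to 0.273 for other pairs. This was clearest for replicate 1 (r from 0.636 to 0.67) and weaker for replicates 2 and 3. There, B6By.C.132.54 replicate 2 had an r of 0.273 with C57BL/6ByJ replicate 3 and 0.148 with C57BL/6ByJ replicate 2. The number was fitted as a block in an alternative only. On simulated data, changes of 0.5, 1, 1.5 and 2 on the log2 scale were planted in 50 of 45037 probe sets each. For BALB/cJ against C57BL/6ByJ 38%, 78%, 100% and 100% of them were called, and 9 probe sets with no planted change. For B6By.C.132.54 against C57BL/6ByJ 30%, 90%, 92% and 96% were called, and 7 probe sets with no planted change. Alternatives were quantile normalization, the block, no dim probe sets, only the arrays compared, an intensity trend with robust prior, the median over probe sets, and leaving out each array.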

Additional observations from a re-analysis of the deposited data

How the results depend on the processing

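The differences of the gained probe sets between BALB/cJ and C57BL/6ByJ kept their sign under the alternatives run for them. They moved by less than the residual SD, the spread of all 9 arrays around their strain means. That SD was 0.195 for Cap1, 0.125 for Baiap2l1, 0.174 for Tmem87a and 0.122 for Hddc3, and the SD within a single strain was in places smaller than the move. The median of a gene's probe sets was not run for these differences, since each value belongs to 1 probe set. The differences ran from 4.40 to 4.63 for Cap1, 3.01 to 3.13 for Baiap2l1, 2.65 to 2.93 for Tmem87a and 1.55 to 1.69 for Hddc3. The small differences between B6By.C.132.54 and C57BL/6ByJ, none called under any alternative, ran with 1 array left out from -0.0337 to 0.185 for Cap1 and from -0.0522 to 0.092 for Hddc3, so their sign is not settled. No member probe set was called between these strains under any alternative, the replicate block included (0 of 9 with the block), and among members, list genes, neighbours and markers the block changed no call other than that of Gsn.

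Counts of called list genes moved as follows. For actin dynamics against B6By.C.132.54 the count of 1 went to 2 with the replicate block and to 0 with only the 6 arrays compared, and ran from 0 to 1 with 1 array left out, as it did against C57BL/6ByJ. For the Golgi retrieval list against C57BL/6ByJ the count of 2 ran from 1 to 2 with 1 array left out, and was 1 when a gene was read by the median of its probe sets. With that median the I-BAR and WAVE count of 1 was 0 against C57BL/6ByJ and 0 against B6By.C.132.54. The count of called neighbours against C57BL/6ByJ, 2, was 1 without dim probe sets, since Rccd1 is one of them, ran from 1 to 2 with 1 array left out, and was 3 with the median of a gene's probe sets. Except for Rccd1, the cause was not tested.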
